A study of Mus musculus with 58 samples.

Results

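The comparison described here asked what a mutated SPOC domain of the Xist-binding protein SPEN did to X-linked gene silencing in differentiating mouse cells that also lacked PCGF3 and PCGF5. It held 4 of the 58 libraries of the series, chosen by their titles. 2 came from clones F10 and F6 of the FKBP12-PCGF35_SPOC line, and 2 were replicate cultures of the FKBP12-PCGF35 line without the SPOC mutation, called the parent line below. All 4 were collected after 6 days in neural precursor (NPC) differentiation medium.

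The cells were female embryonic stem (ES) cells, hybrids of a 129S (Dom) and a Cast mouse genome, built on the iXist-ChrX-Dom line. In all 4 cultures Xist was driven on the Dom X by a TetO promoter that doxycycline, given at 1 ug/mL throughout, switches on. In all 4, PCGF3 and PCGF5 carried an FKBP12 degron tag that dTAG-13 marks for destruction. dTAG-13 was added 12 h before doxycycline, at a concentration the labels give as 100 uM. The groups thus differed by line, and each SPOC library was 1 clone. The study subcloned F6 before sequencing because some of its cells had kept a single X. The model drives Xist from an artificial promoter rather than its own. ES cells were grown on fibroblast feeders that were removed by pre-plating. The tag acts on protein and the SPOC mutation was not read from the counts, so neither can be checked from gene totals.

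Xist RNA coats the chromosome that makes it and silences its genes. SPEN binds Xist, and its SPOC domain contacts the NCoR corepressor, which carries the histone deacetylase HDAC3. PCGF3 and PCGF5 are alternative subunits of Polycomb repressive complex PRC1, which places ubiquitin on histone H2A around Xist and so brings in PRC2, the complex that methylates histone H3.

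Chromatin-associated RNA was sequenced, which is rich in unspliced transcripts and therefore close to current transcription. The allelic ratio of a gene is its Dom fragments divided by its Dom plus Cast fragments, so a ratio near 0.5 means even expression of both X chromosomes and a ratio near 0 means a silent Dom X. A deposited table holds this ratio for 246 X-linked genes, which all lie before the Xist gene. The 4 libraries held 12.4 M to 16.5 M fragments (M for mega), of which 45.9% to 47.7% could be assigned to an allele. The median number of allelic fragments per gene was 120.5 to 201.5. The parent cultures differed from each other by a chi-square per degree of freedom of 16.7 over all genes, and the 2 clones by 130.

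Clone F10 stood apart. It had the lowest Cast expression of X-linked genes, the highest ratios, and the highest level of neural and fibroblast marker RNA of the 4 libraries, so results that rest on it are given with and without it. The NPC label was only partly borne out by markers. Of 20 neural precursor markers, 8 to 11 were under 1 CPM (fragments of a gene per 1000000 fragments of its library) in each library. Sox1 and Olig2, transcription factors of neural precursors, were listed at 0 in all 4, as was Sox2, which ES cells and neural precursors both use, so a listed 0 does not by itself show absence. Pax6, a neural factor, was at 0.804 to 1.52 CPM. RNA of naive pluripotency markers summed to 711 and 533 CPM in the parent cultures, 491 in F10 and 1269 in F6, against 1598 to 2533 in the ES cultures of the same lines at day 0. In bulk RNA, fewer cells of a type and less RNA per cell cannot be told apart.

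Xist was highly expressed on both sides of the comparison. Its level was 8033 and 11367 CPM in the parent cultures, 10295 in F10 and 5344 in F6, and at least 99.9% of its allelic fragments were Dom in each. The groups overlapped, and the fitted change was a log2 fold change of -0.36 with an SE of 0.35 (edgeR's quasi-likelihood test, adjusted p = 0.778). Tsix, the antisense partner of Xist, was at 183 and 143 CPM in the parent cultures, 62.5 in F10 and 184 in F6, again overlapping. Spen itself was at 169 and 156 CPM in the parent cultures, 199 in F10 and 630 in F6. Both clones lay above both parent cultures for Spen, as for 20.4% of all genes tested. The log2 fold change of 1.32 with an SE of 0.48 did not pass the adjusted threshold (edgeR, adjusted p = 0.519). Spen was also higher in both clones in other cultures. On day 0 with dTAG-13 it was at 119 and 96.5 CPM in the parent cultures, 332 in F10 and 304 in F6. On NPC day 6 without dTAG-13 it was at 162 and 137 CPM in the parent line, 268 in F10 and 657 in F6. Pcgf3 was at 78.7 and 81.3 CPM in the parent cultures, 92.8 in F10 and 73.6 in F6. Pcgf5 was at 52.5 and 94.3 CPM in the parent cultures, 97.6 in F10 and 32.6 in F6. RNA of neither tagged gene separated the groups.

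The Dom X was expressed close to evenly with the Cast X in F6 and above it in F10, while it was partly silent in the parent line. The median allelic ratio over the 246 genes was 0.225 and 0.228 in the parent cultures, 0.579 in F10 and 0.500 in F6. The group means were 0.227 ± 0.00217 (SD, n = 2) and 0.539 ± 0.0556 (SD, n = 2), so the clones were higher by 0.313, against a pooled SD of 0.0394. The groups did not overlap. With 2 against 2 libraries the exact permutation test (two-sided) cannot go below p = 0.333, and that was its value. Without F10 the difference was 0.273, and without F6 it was 0.352.

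The whole distribution moved rather than a few genes. The middle 50% of genes lay between 0.144 and 0.315 in the first parent culture and between 0.149 and 0.320 in the other. They lay between 0.504 and 0.630 in F10 and between 0.451 and 0.549 in F6. A ratio of 0.4 or more was found for 22 and 20 genes in the parent cultures, 223 in F10 and 216 in F6. A ratio under 0.2 was found for 97 genes in each parent culture, 1 in F10 and 4 in F6. Summed over genes, the Dom share was 0.241 in the first parent culture, with a 95% Wilson interval of 0.239 to 0.244, and 0.249 (0.246 to 0.252) in the other. It was 0.591 (0.588 to 0.594) in F10 and 0.503 (0.500 to 0.506) in F6. These intervals cover counting error alone.

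**Figure D1:**
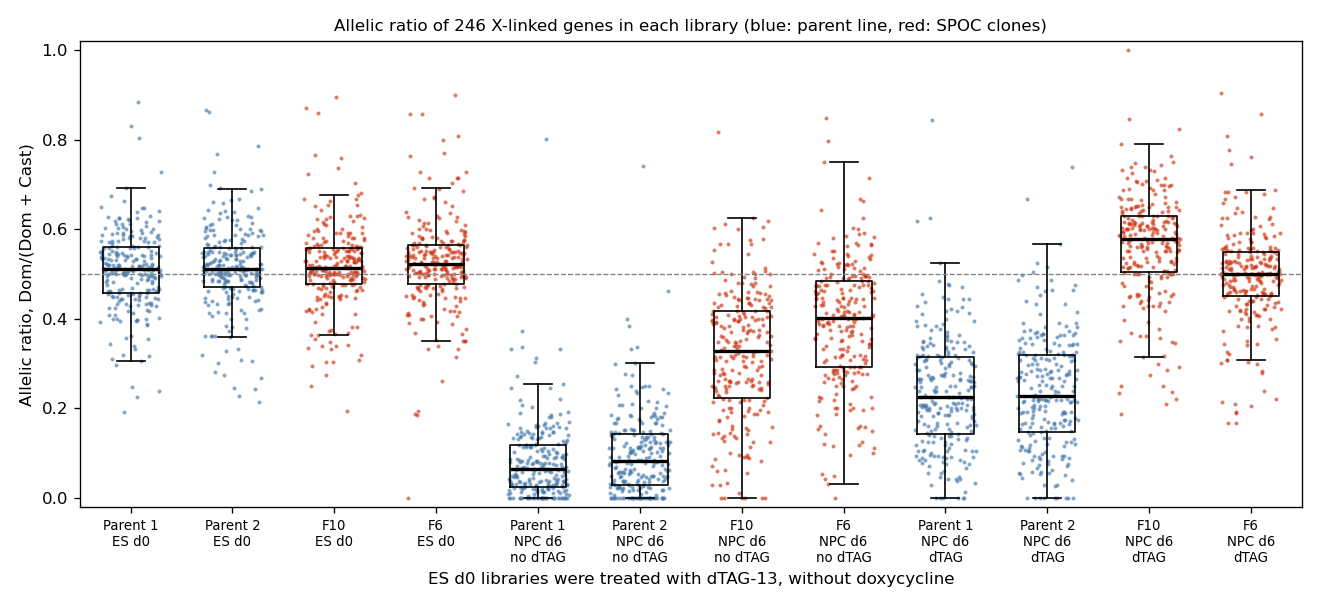
Allelic ratio, Dom over Dom plus Cast fragments, of the 246 X-linked genes in each library of the parent line (blue) and of the SPOC clones (red). The SPOC libraries with dTAG-13 on NPC day 6 centre at 0.579 and 0.500, above the parent libraries at 0.225 and 0.228.

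Before Xist was induced the medians of the lines lay close together. On day 0, with dTAG-13, the medians were 0.512 in both parent cultures, 0.514 in F10 and 0.523 in F6. After 1 day of doxycycline in ES medium the parent cultures were at 0.417 and 0.399, F10 at 0.508 and F6 at 0.512. On NPC day 3 the parent cultures were at 0.307 and 0.333, F10 at 0.557 and F6 at 0.503. The parent line thus moved away from 0.5 at each later time, F6 stayed within 0.500 to 0.523, and F10 moved upward.

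Against its own day 0 ratio, nearly every gene fell in the parent line. The ratio was below day 0 for 242 and 243 of the 246 genes in the parent cultures, and below it by more than 0.1 for 225 and 230. In F6 it was below day 0 for 158 genes, by more than 0.1 for 38 of them, and above day 0 by more than 0.1 for 11. In F10 it was below for 65, by more than 0.1 for 24, and above by more than 0.1 for 71. The median of day 6 over day 0 was 0.462 and 0.463 in the parent cultures, 0.960 in F6 and 1.11 in F10.

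Few genes lay away from their day 0 ratio in the same direction in both clones. The median difference from day 0 was 0.0542 in F10 and -0.0211 in F6. A cut required of both clones thus leaves out falls seen in F6 alone. Of the 163 genes with at least 50 allelic fragments in each of the 4 libraries, 4 were more than 0.05 below day 0 in both F10 and F6, namely Eda, Gpkow, Aff2 and Mtmr1, a set picked out after the values were seen, and 9 were more than 0.05 above it in both. Eda, a signalling ligand of skin appendage development, had ratios of 0.0906 and 0.0876 in the parent cultures. In F10 its ratio was 0.368, against 0.468 on day 0. In F6 it was 0.344, against 0.494. So Eda was above the parent line in both clones and below its starting ratio. How many of the 163 genes would differ by as much from sampling noise was not tested.

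Gene by gene, 245 of 246 genes had a higher mean ratio in the clones than in the parent line. The exception was Slc25a5, a mitochondrial nucleotide carrier, at 0.388 and 0.504 in the parent cultures, 0.439 in F10 and 0.440 in F6. Both clones lay above both parent cultures for 234 genes, the groups overlapped for 12 genes, and no gene lay lower. Over all 11699 genes tested, on any chromosome, 18.0% did not overlap in the higher direction. The median rise per gene was 0.295, with quartiles of 0.217 and 0.362.

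The test on Dom and Cast counts (edgeR's quasi-likelihood test, Benjamini-Hochberg adjustment over all 11699 genes, threshold 0.05) could be run for 229 of the 246 genes, those with at least 10 allelic fragments in each of the 4 libraries. It called 154 higher and 0 lower, where 1.39% of all genes tested were called higher and 0.0513% lower. The median change over the 229 genes was 1.99 on the log2 odds scale, that is, of Dom over Cast fragments, and over autosomal genes -0.00391. Of the 75 genes not called, 67 were higher in both clones. Their lowest library held a median of 45 allelic fragments, against 205 for the called genes. Without F10 the count was 108 and the median change 1.70, without F6 142 and 2.16, and without the first parent culture 87 and 1.91. Of 16 further X genes that were tested but have no deposited ratio, 5 were called higher: Rhox5, Usp26, Xlr3a, Mageb16 and Il1rapl1.

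**Figure D2:**
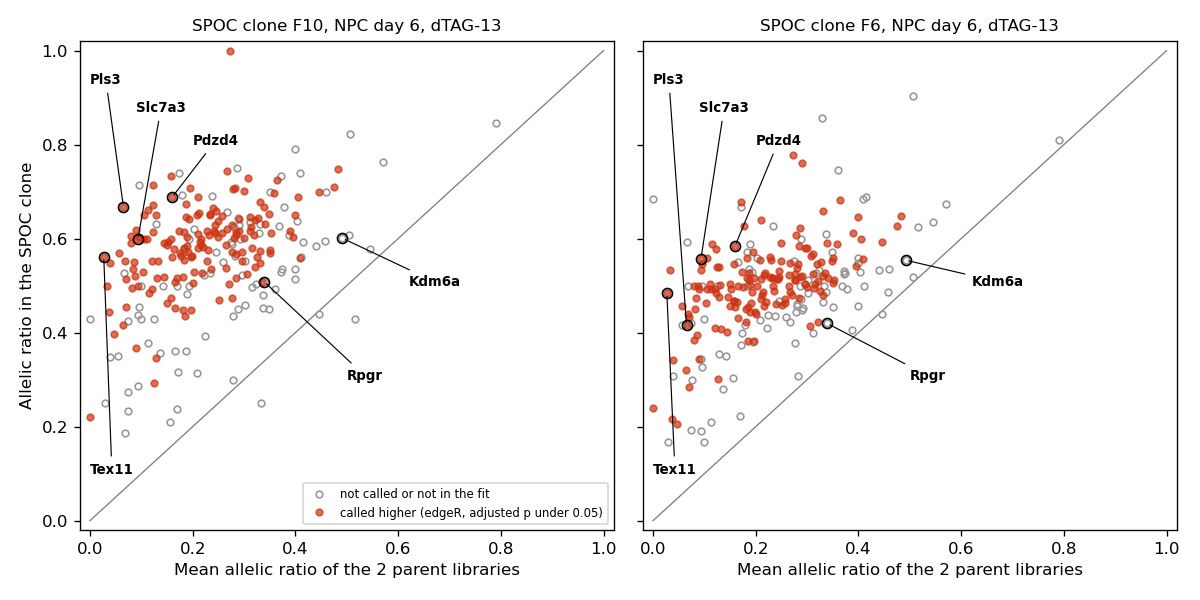
Each point is 1 of the 246 X-linked genes, with its mean allelic ratio in the 2 parent libraries on the x axis and its ratio in clone F10 (left) or F6 (right) on the y axis. Filled red points were called higher by edgeR (154 genes), open grey points were not called or not tested, and nearly all lie above the line of equal ratios.

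The largest rises were in genes with parent ratios of at most 0.175, the value of Pdzd4 in 1 culture. By the rule for named genes these were Fhl1, Itgb1bp2, Tex11, Slc7a3, Dlg3, Pdzd4, Pls3 and Tbl1x, which rose by 0.467 to 0.524. Fhl1 encodes a LIM-domain protein of muscle and lies at chrX:56731760-56793346 of mm10 as the count files give it. Its ratio was 0.150 and 0.0946 in the parent cultures, 0.714 in F10 and 0.578 in F6. That is a rise of 3.78 on the log2 odds scale with an SE of 0.26 (edgeR, adjusted p = 3.33e-07).

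Tex11, a meiosis gene at chrX:100838647-101059639, had the lowest parent ratios of these 8 genes, 0.0129 and 0.0408. It was at 0.562 in F10 and 0.484 in F6. Its 95% Wilson intervals reached at most 0.0862 in the parent cultures and began at 0.434 or above in the clones. The change was 5.20 on the log2 odds scale with an SE of 0.42 (edgeR, adjusted p = 2.11e-06). Slc7a3, a cationic amino acid transporter whose gene is near Tex11, was at 0.0926 and 0.0940 in the parent cultures, 0.599 in F10 and 0.557 in F6. Dlg3, a synaptic scaffold gene of the same stretch, was at 0.107 and 0.0844 in the parent cultures, 0.603 in F10 and 0.545 in F6. Itgb1bp2, at chrX:101449108-101453541 just beyond them, was at 0.121 and 0.0899 in the parent cultures, 0.650 in F10 and 0.558 in F6.

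Pdzd4, a PDZ-domain gene, was at 0.144 and 0.175 in the parent cultures, 0.688 in F10 and 0.584 in F6. Pls3, which bundles actin, was at 0.0787 and 0.0518 in the parent cultures, 0.667 in F10 and 0.415 in F6. Pls3 shows the widest gap between the clones among these 8 genes. Tbl1x, itself a subunit of the NCoR corepressor complex, had the deepest coverage of them, with 1624 to 2676 allelic fragments a library. Its ratio was 0.129 and 0.127 in the parent cultures, 0.649 in F10 and 0.540 in F6, a change of 3.33 on the log2 odds scale with an SE of 0.21 (edgeR, adjusted p = 1.77e-07).

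The smallest rises, among the 88 genes with at least 200 allelic fragments in each library, were in Kdm6a, Rbm3, Rpgr, Atp6ap2, Uba1 and Araf, which differed by 0.0858 to 0.159. Kdm6a, a histone demethylase gene known to escape X inactivation, was at 0.485 and 0.498 in the parent cultures, 0.601 in F10 and 0.554 in F6. The groups did not overlap, but the change of 0.50 on the log2 odds scale with an SE of 0.14 was not called (edgeR, adjusted p = 0.152). Rbm3, a cold-induced RNA-binding protein gene, was at 0.418 and 0.462 in the parent cultures, 0.584 in F10 and 0.533 in F6 (edgeR, adjusted p = 0.0850). Rpgr, a ciliary protein gene of photoreceptors, was at 0.336 and 0.342 in the parent cultures, 0.508 in F10 and 0.420 in F6 (edgeR, adjusted p = 0.176).

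Of these 6 genes, Atp6ap2, an accessory subunit gene of the proton pump, was the 1 that was called. It was at 0.427 and 0.390 in the parent cultures, 0.559 in F10 and 0.557 in F6 (edgeR, adjusted p = 0.0468), and it was not called when any 1 of the 4 libraries was left out. Uba1, which activates ubiquitin, was at 0.365 and 0.382 in the parent cultures, 0.536 in F10 and 0.526 in F6 (edgeR, adjusted p = 0.295). Araf, a RAF kinase gene, was at 0.352 and 0.390 in the parent cultures, 0.528 in F10 and 0.531 in F6 (edgeR, adjusted p = 0.130). For all 6 genes both clones lay above both parent cultures, and the parent ratio was higher than for the 8 genes of largest rise.

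Promoter sequences are shown for 2 genes of the largest and 2 of the smallest rises, so that the DNA around the start of each can be compared. They come from RefSeq (GRCm38.p6), which held an entry for 10 of the 14 genes named above. Each window is 300 bases long with the gene start near its end, read along the gene's strand, and capitals mark the letters CG, which read the same on both strands.
Pls3 (chrX:75875121-75875420, minus strand): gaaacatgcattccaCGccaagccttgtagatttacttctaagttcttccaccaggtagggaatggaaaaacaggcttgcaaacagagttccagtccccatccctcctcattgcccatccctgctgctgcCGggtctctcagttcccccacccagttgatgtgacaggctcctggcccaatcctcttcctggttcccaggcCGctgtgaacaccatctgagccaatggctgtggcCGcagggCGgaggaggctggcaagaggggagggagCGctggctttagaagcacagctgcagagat
Tbl1x (chrX:77510977-77511276, plus strand): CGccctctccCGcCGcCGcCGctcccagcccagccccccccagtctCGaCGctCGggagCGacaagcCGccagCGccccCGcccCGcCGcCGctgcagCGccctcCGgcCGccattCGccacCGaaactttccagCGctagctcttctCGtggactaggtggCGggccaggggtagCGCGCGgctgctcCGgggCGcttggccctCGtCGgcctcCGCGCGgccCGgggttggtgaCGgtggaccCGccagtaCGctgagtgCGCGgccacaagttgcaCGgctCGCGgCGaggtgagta
Kdm6a (chrX:18162325-18162624, plus strand): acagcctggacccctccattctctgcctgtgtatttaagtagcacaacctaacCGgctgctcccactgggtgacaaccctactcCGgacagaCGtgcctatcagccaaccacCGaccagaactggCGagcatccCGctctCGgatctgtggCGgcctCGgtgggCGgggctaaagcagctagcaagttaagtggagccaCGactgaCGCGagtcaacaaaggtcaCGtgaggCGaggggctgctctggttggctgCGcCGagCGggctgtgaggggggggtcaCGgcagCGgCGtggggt
Atp6ap2 (chrX:12587509-12587808, plus strand): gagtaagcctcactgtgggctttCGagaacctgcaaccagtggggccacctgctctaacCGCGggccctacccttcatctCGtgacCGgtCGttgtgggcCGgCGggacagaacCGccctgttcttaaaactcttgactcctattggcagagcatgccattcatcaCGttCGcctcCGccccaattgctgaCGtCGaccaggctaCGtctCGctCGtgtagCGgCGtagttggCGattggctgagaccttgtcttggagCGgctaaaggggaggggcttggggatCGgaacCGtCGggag
Pls3 held 6 CG and Tbl1x 43, although both were among the largest rises. Kdm6a held 21 and Atp6ap2 24. Of 32851 RefSeq promoters of this length, with a median of 7 CG, 56.4% held as many as Pls3 or more, 2.61% as many as Tbl1x, 24.8% as many as Kdm6a and 20.0% as many as Atp6ap2. The counts describe these windows and were not tested.

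The rise went with how a gene behaved on the Dom X elsewhere. The 246 genes were divided into 3 groups of 82 by their ratio in the WT line on NPC day 6, which shares no library with the comparison. The genes most silent in WT had a median rise of 0.364, the middle group 0.300, and the least silent 0.224. Their medians in the parent cultures were 0.125 and 0.113, then 0.238 and 0.228, then 0.319 and 0.326. In F6 the same groups were at 0.466, 0.500 and 0.530, and in F10 at 0.542, 0.575 and 0.607. The parent line was therefore spread over a wider range of medians than either clone. Over the 163 genes with at least 50 allelic fragments, Pearson's r between the rise and the WT ratio was -0.674 (Spearman's rho -0.672). The mean parent ratio, which is subtracted to give the rise, itself followed the WT ratio (Pearson's r 0.863). Part of the negative correlation is therefore built into the rise. These values are a description across genes, which are not independent replicates.

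Ratios also differed with position. The genes nearest to Xist, within 29.2 Mb, had a median rise of 0.342, the middle group 0.326, and the farthest, from 62.1 to 97.4 Mb, 0.217. Medians in the parent cultures were 0.196 and 0.174 near Xist and 0.300 and 0.312 far from it. In F6 they were 0.500 near and 0.513 far, and in F10 0.596 near and 0.529 far. The lower rise far from Xist thus went with a higher parent ratio, and in F10 with a lower clone ratio too. By contrast, 3 groups by expression in ES cells at day 0 had near-equal median rises of 0.296, 0.290 and 0.299 from lowest to highest.

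**Figure D3:**
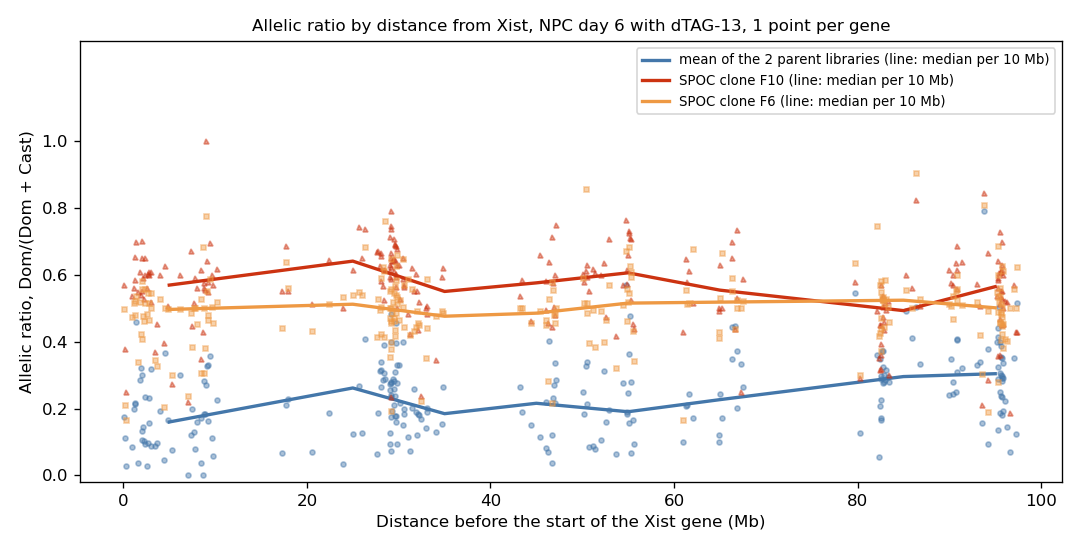
Allelic ratio of the 246 X-linked genes against their distance from the Xist gene in Mb, in the parent line and in the SPOC clones. The farthest 82 genes have medians of 0.300 and 0.312 in the parent libraries, and 0.529 and 0.513 in F10 and F6.

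Separating the alleles showed that the clones reached a higher ratio in different ways. Summed over the 246 genes, Dom RNA was 1693 and 1631 CPM in the parent cultures, 3817 in F10 and 5039 in F6. Cast RNA was 5321 and 4918 CPM in the parent cultures, 2646 in F10 and 4977 in F6. In F6, Dom RNA was 3.03-fold and Cast RNA 0.972-fold the parent mean. In F10, Dom RNA was 2.297-fold and Cast RNA 0.517-fold the parent mean. The higher Dom level was common to both clones and the lower Cast level was seen in F10.

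The same held gene by gene. In F6, Dom CPM was above both parent cultures for 223 of 229 tested genes (97.4%, against 41.1% of autosomal genes). Cast CPM in F6 was above both for 85 genes (37.1%, against 40.0% of autosomal genes) and below both for 89 (38.9%, against 34.8%). In F10, Dom CPM was above both for 198 genes (86.5%, against 46.9% of autosomal genes), and Cast CPM was below both for 202 (88.2%, against 34.4% of autosomal genes). As a share of each culture's own day 0 level, Cast RNA stood at 104% and 88.8% in the parent cultures, 90.6% in F6 and 54.8% in F10. Dom RNA stood at 31.6% and 28.2% in the parent cultures, 84.6% in F6 and 74.2% in F10.

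The Cast level of F10 fell over time. It was 4826 CPM on day 0, 4737 after 1 day, 3420 on NPC day 3 and 2646 on NPC day 6 with dTAG-13, and 4037 on NPC day 6 without dTAG-13. In F6 it was 5492, 5377, 4976 and 4977 CPM with dTAG-13 over the same times. The ratio was higher in F10 than in F6 for 195 of 246 genes, with a median difference of 0.0783. Cells that lose the Cast X would lower Cast RNA and raise the ratio of every X gene with no change in silencing, and the study describes such loss as a hazard of differentiating cells in which both X chromosomes are active. The study also reports an upward skew of NPC ratios in a clone of this line that its legend names G3. It interprets that skew as selection for cells that had lost the Cast X. The labels hold no G3 clone of this line. The study lists F6 and F10 for it and shows the subcloned F6 elsewhere. Whether part of the F10 culture had lost its Cast X was not tested.

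**Figure D4:**
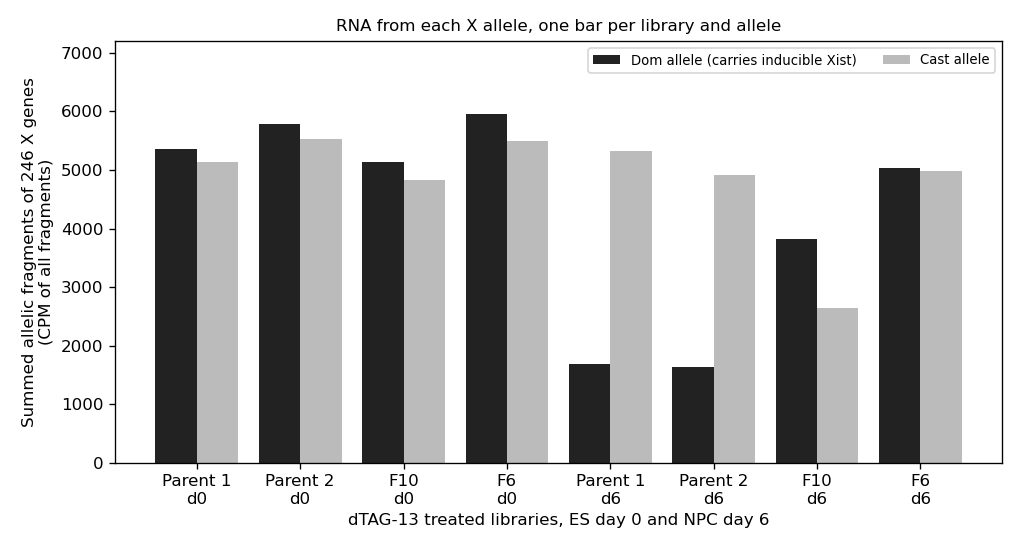
Summed Cast and Dom fragments of the 246 X-linked genes in each library, in CPM of all fragments of the library. Dom RNA is 1631 and 1693 CPM in the parent libraries and 3817 and 5039 CPM in F10 and F6, while Cast RNA is 2646 CPM in F10 and 4918 to 5321 CPM in the others.

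Allele-resolved changes on autosomes were rare. Of 11454 autosomal genes tested, 4 were called higher and 6 lower, so 0.0349% were called higher. Igsf11 and Nrip1, both called higher, lie on chromosome 16, whose Dom share over all genes was 0.426 and 0.349 in the parent cultures, 0.505 in F10 and 0.278 in F6. Over the 364 tested genes of chromosome 16 the median change was 0.0219 on the log2 odds scale. Acyp2 and Shisa6, on chromosome 11, were the other 2 called higher. The 6 called lower were Acsl6, Aoah, Lima1, Rwdd3, Fam169b and the pluripotency gene Zfp42. Zfp42 was at 0.605 and 0.579 in the parent cultures, 0.394 in F10 and 0.458 in F6 (edgeR, adjusted p = 0.0316).

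The same SPOC mutation was also compared without dTAG-13, to ask whether its effect depended on PCGF3/5. Without dTAG-13 the medians were 0.0649 and 0.0833 in the parent line, 0.328 in F10 and 0.402 in F6, a difference of 0.291. With dTAG-13 the difference was 0.313. The 2 differences were 0.0217 apart (exact two-sided permutation of line labels within treatment, 36 relabelings, p = 0.778). Some relabelings swap the lines in only one treatment, which turns the line effect itself into a difference between treatments. They also ignore that the same clones stand in both treatments. This p-value therefore cannot decide whether the effect depended on PCGF3/5. The sign of the 0.0217 turned to -0.0176 without the F10 library with dTAG-13 and to -0.0155 without the F10 library without it. On the ratio scale 139 of 246 genes rose more with dTAG-13, with median rises of 0.295 with and 0.264 without. These values are given with F10 only, whose Cast RNA over the 246 genes was 2646 CPM with dTAG-13 and 4037 CPM without.

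On the log2 odds scale the rise was smaller with dTAG-13. The difference of the rises had a median of -0.78 over the 229 genes and was below 0 for 202. edgeR's quasi-likelihood test called 0 genes in either direction. Before adjustment, 324 of all 11699 tested genes had a p below 0.05. Among the 229 with a deposited ratio, 64 passed that level as lower and 0 as higher. The clone is the same cell line with and without dTAG-13, and with clone and replicate number as a block the test called 15 genes higher (0.128%) and 33 lower (0.282%). Of the genes with a deposited ratio, 16 were among those lower and 0 among those higher. Limma on the ratios gave a median of 0.016 and called 0 genes. The sign of the median thus differed between the 2 scales.

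Rbm3 is an example of a gene called with the block. Without dTAG-13 its ratio was 0.161 and 0.205 in the parent line, 0.455 in F10 and 0.534 in F6. With dTAG-13 the parent line was at 0.418 and 0.462 and the clones at 0.584 and 0.533, so the parent line moved more than the clones did. On day 0, with dTAG-13, the ratio of Rbm3 was 0.529 and 0.535 in the parent cultures, 0.540 in F10 and 0.528 in F6. F6 without dTAG-13 was therefore already near its day 0 ratio. Whether that limited the difference between treatments was not tested. The blocked difference was -1.52 on the log2 odds scale (edgeR, adjusted p = 0.00125). Klhl13, which encodes an adaptor of a ubiquitin ligase and restrains MAPK signalling in female ES cells, was also called with the block. Without dTAG-13 its ratio was 0.0425 and 0.0474 in the parent line, 0.193 in F10 and 0.274 in F6.

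Placed among the 8 groups of NPC day 6 libraries, the SPOC clones with dTAG-13 had the highest mean of the medians, 0.539. The line with the SPOC mutation and a deleted Polycomb-recruiting region of Xist (DelPID_SPOC) was at 0.502 and overlapped with it. The first rank rests on F10, at 0.579. F6 was at 0.500, within the DelPID_SPOC range of 0.496 to 0.508. Next came the untreated FKBP12-PCGF35_SPOC clones at 0.365 and the SPOC line at 0.335, which overlapped with each other, then DelPID at 0.290, the parent line with dTAG-13 at 0.227, WT at 0.0859 and the untreated parent line at 0.0741. All groups held 2 libraries.

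Total expression, without regard to allele, gave no called gene. edgeR's quasi-likelihood test called 0 of 15119 genes higher and 0 lower, with 787 higher (5.21%) and 538 lower (3.56%) at an unadjusted p under 0.05 and a smallest adjusted p of 0.470. DESeq2 called 17 higher (0.112%) and 22 lower (0.146%), and the edgeR test with all 58 libraries called 5 higher (0.0308%) and 3 lower (0.0185%).

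X-linked genes leaned higher in total RNA, though not in both clones. Over the 246 genes the median of the log2 fold changes was 0.22 and 174 (70.7%) were above 0, against 0.019 and 52.0% for autosomal genes. At an unadjusted p under 0.05, 37 of the 246 were higher and 2 lower, against 5.21% and 3.56% of all genes. The median was 0.53 without F10 and -0.15 without F6, so this lean rests on F6. Total RNA of all X genes other than Xist was 35409 and 34282 CPM in the parent cultures, 31315 in F10 and 48728 in F6.

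7 genes were called by both DESeq2 and the fit to all libraries, and they are named here after their values were seen. Firre, a long noncoding RNA gene of the X, was at 312 and 272 CPM in the parent cultures, 649 in F10 and 738 in F6. Its ratio was 0.198 and 0.191 in the parent cultures, 0.708 in F10 and 0.571 in F6, so it was higher in total and in Dom share in both clones. Bcorl1, an X-linked corepressor gene, was at 8.10 and 8.60 CPM in the parent cultures, 31.7 in F10 and 16.2 in F6. The others were Dpysl4 and Atp2b4, higher in the clones, and Mybpc3, Tmem255b and Nrk, lower. Nrk, an X-linked kinase gene, was at 47.0 and 56.5 CPM in the parent cultures, 15.3 in F10 and 7.82 in F6.

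Lineage marker levels differed between the 2 clones as well as between the lines. No listed gene was called by edgeR's quasi-likelihood test on total counts, in any of 17 lists, and DESeq2 called 2 of them, Lef1 and Egr1. For neural precursor genes the sum was 751 and 589 CPM in the parent cultures, 1525 in F10 and 872 in F6. Of the 13 tested, 0 were higher and 1 lower at an unadjusted p under 0.05, against 5.21% and 3.56% of all genes. Their median log2 level over the parent mean was 0.975 in F10 and -0.439 in F6. Nes, an intermediate filament gene of neural precursors, was at 60.1 and 24.2 CPM in the parent cultures, 166 in F10 and 12.3 in F6. Vim, another filament gene, was at 49.6 and 26.5 CPM in the parent cultures, 189 in F10 and 28.1 in F6. F10 was the highest for both. Ncam1, a neural adhesion gene, was at 399 and 343 CPM in the parent cultures, 591 in F10 and 641 in F6, with both clones above both parent cultures, as for 20.4% of all genes tested. Ncam1 made up most of the F6 sum of 872 CPM. On day 0, in ES cells, it was already at 485 and 473 CPM in the parent cultures, 407 in F10 and 447 in F6.

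Of 12 naive pluripotency genes, 0 passed the unadjusted threshold in either direction. Their median log2 level over the parent mean was -0.528 in F10 and 1.10 in F6, though not every gene followed the median. Nanog, a core factor of the naive state, was at 23.0 and 16.2 CPM in the parent cultures, 22.0 in F10 and 55.1 in F6, so F10 lay between the parent cultures. Esrrb, a nuclear receptor of the same network, was at 335 and 244 CPM in the parent cultures, 191 in F10 and 495 in F6.

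Core and formative pluripotency genes had a lower sum in both clones, as did endoderm genes. For the former it was 1068 and 1434 CPM in the parent cultures, 382 in F10 and 635 in F6. Of 10 tested genes, 6 had both clones below both parent cultures, where 17.1% of all genes did, and 4 were lower at an unadjusted p under 0.05 against 3.56% of all genes. Lef1, a transcription factor of WNT signalling, was at 135 and 213 CPM in the parent cultures, 28.7 in F10 and 42.1 in F6. Its log2 fold change of -2.34 with an SE of 0.41 had an adjusted p of 0.473 in edgeR and 7.78e-05 in DESeq2. Dnmt3b, a DNA methyltransferase of formative cells, was at 501 and 754 CPM in the parent cultures, 123 in F10 and 232 in F6. Pou5f1, which encodes OCT4, was at 69.2 and 59.7 CPM in the parent cultures, 24.98 in F10 and 68.3 in F6, so its groups overlapped.

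Endoderm genes had the widest spread. Their sum was 1819 and 5981 CPM in the parent cultures, 912 in F10 and 138 in F6. Of 8 genes tested, 6 had both clones below both parent cultures, against 17.1% of all genes. At an unadjusted p under 0.05, 4 were lower, against 3.56% of all genes. The median log2 fold change of the 8 was -2.12. Lama1, a basement membrane laminin gene, was at 736 and 2325 CPM in the parent cultures, 321 in F10 and 78.1 in F6. Col4a1, a basement membrane collagen gene, was at 987 and 3403 CPM in the parent cultures, 496 in F10 and 36.9 in F6. Gata4, an endoderm transcription factor, was at 33.5 and 108 CPM in the parent cultures, 21.6 in F10 and 7.45 in F6. Without dTAG-13 the sums were 1257 and 4622 CPM in the parent line, 1574 in F10 and 173 in F6, so F6 was again the lowest.

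**Figure D5:**
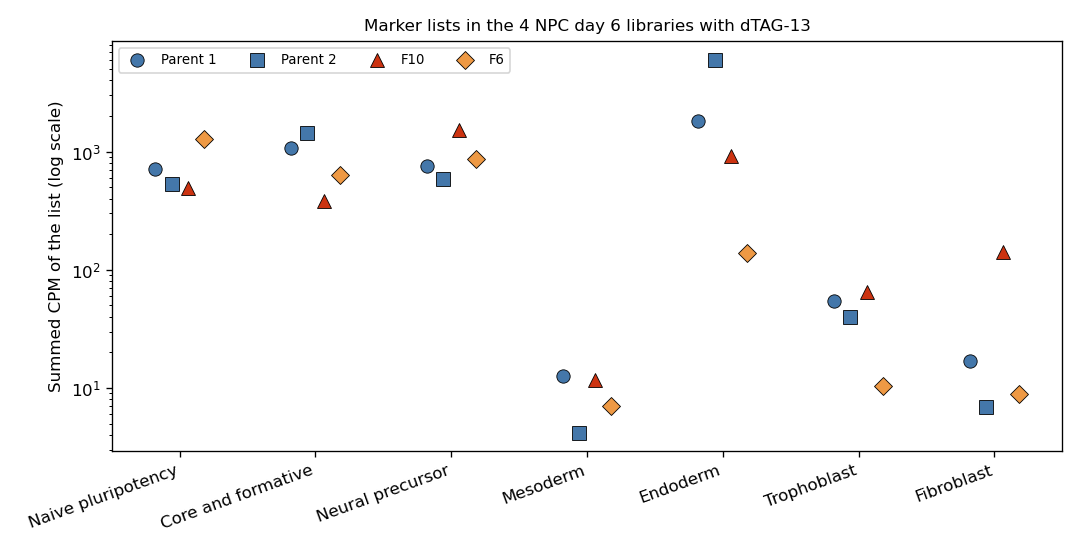
Summed CPM of lineage marker lists in the 4 libraries, on a log axis. Endoderm genes sum to 1819 and 5981 CPM in the parent libraries, 912 in F10 and 138 in F6, and fibroblast genes to 141 CPM in F10 and 6.84 to 16.8 CPM in the others.

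Fibroblast genes, a list for the feeder cells, summed to 16.8 and 6.84 CPM in the parent cultures, 141 in F10 and 8.88 in F6. At an unadjusted p under 0.05, 1 of 7 tested was higher, against 5.21% of all genes. Most of the F10 value was Col1a2, a collagen gene, at 106 CPM against 7.34 and 2.57 in the parent cultures and 3.08 in F6. Its Dom share in F10 was 0.468. Mesoderm genes summed to 12.7 and 4.18 CPM in the parent cultures, 11.8 in F10 and 6.996 in F6. At an unadjusted p under 0.05, 1 of 4 tested was higher, against 5.21% of all genes. Trophoblast genes summed to 54.6 and 40.0 CPM in the parent cultures, 64.7 in F10 and 10.5 in F6, with 0 of 4 at that level. The part of these cell type differences in the allelic ratios was not tested.

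In genes of the SPEN and Polycomb complexes few total levels passed the unadjusted threshold, and none was called. Over all genes tested, 5.21% were higher and 3.56% lower at that threshold. Of 10 SPEN corepressor genes 1 was higher (Spen) and 1 lower at an unadjusted p under 0.05, with a median log2 fold change of -0.11. Ncor1, the corepressor that SPOC contacts, was at 958 and 874 CPM in the parent cultures, 827 in F10 and 928 in F6. Hdac3, its deacetylase, was at 25.2 and 24.7 CPM in the parent cultures, 26.5 in F10 and 24.1 in F6. The gene lower at that level was Tbl1xr1, a partner of Ncor1, at 686 and 683 CPM in the parent cultures, 522 in F10 and 526 in F6. Of 20 PRC1 genes tested, 2 were higher and 1 lower, with a median of -0.072. Phc1, a Polyhomeotic subunit gene, was the lower 1, at 310 and 320 CPM in the parent cultures, 142 in F10 and 244 in F6. Of 11 PRC2 genes tested, 1 was higher and 1 lower, with a median of -0.099, and the higher 1 was Ezh1, a histone methyltransferase gene, at 53.9 and 45.9 CPM in the parent cultures, 79.5 in F10 and 76.6 in F6. Hox genes, classical Polycomb targets, summed to 1.61 to 4.44 CPM in the 4 libraries, 3 of 39 could be tested and 0 passed the unadjusted threshold.

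Notch and RBPJ genes, a pathway that SPEN also represses, had 3 of 12 tested genes higher and 0 lower at an unadjusted p under 0.05. Of all genes tested, 5.21% were higher and 3.56% lower at that level. Hes1, a Notch target, was at 5.98 and 2.98 CPM in the parent cultures, 14.0 in F10 and 7.67 in F6. Hey1, another target, was at 0.151 and 0.0804 CPM in the parent cultures, 1.22 in F10 and 1.35 in F6. Both clones were above both parent cultures for Hes1 and Hey1, at low levels, as for 20.4% of all genes tested. Neither was called by edgeR (adjusted p = 0.513 and 0.473).

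Of 13 ERK output genes, 0 were higher and 3 lower at an unadjusted p under 0.05, against 5.21% and 3.56% of all genes. Egr1, an immediate early gene, was at 19.8 and 16.9 CPM in the parent cultures, 5.35 in F10 and 6.54 in F6 (edgeR adjusted p = 0.473, DESeq2 adjusted p = 0.0434). Dusp4, a MAPK phosphatase gene, was at 36.1 and 26.9 CPM in the parent cultures, 14.2 in F10 and 18.9 in F6. Etv5, a factor downstream of FGF, was at 273 and 253 CPM in the parent cultures, 51.4 in F10 and 200 in F6. Of 10 p53 targets tested, 0 passed the unadjusted threshold in either direction. Cdkn1a, the p53-induced cell cycle inhibitor, was at 36.5 and 39.4 CPM in the parent cultures, 38.7 in F10 and 35.7 in F6.

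Of 9 X-linked regulators of MAPK signalling and pluripotency, 7 have a deposited ratio, and 5 of these were called higher by the test on allele counts, among them Klhl13, Dusp9, Nr0b1 and Pim2. Of all tested genes with a deposited ratio 67.2% were called higher, a share near that of the list. Klhl13 was at 0.126 and 0.125 in the parent cultures, 0.293 in F10 and 0.301 in F6. On day 0 it was already at 0.317 and 0.328 in the parent cultures, 0.334 in F10 and 0.350 in F6, so the clones lay close to their own starting ratio. In total RNA, 2 of the 9 were higher and 2 lower at an unadjusted p under 0.05, against 5.21% and 3.56% of all genes. Pim2, a serine kinase gene, was at 30.3 and 37.6 CPM in the parent cultures, 6.81 in F10 and 9.03 in F6, while its Dom share went from 0.226 and 0.247 to 0.535 and 0.488. So its Dom share rose while its total RNA was lower in both clones.

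Of 9 genes known to escape X inactivation, 5 have a deposited ratio, and 4 of these, Eif2s3x, Ddx3x, Utp14a and Shroom4, were called higher in Dom share, against 67.2% of all tested genes with a deposited ratio. Kdm6a was the exception. Ddx3x, an RNA helicase gene, was at 0.341 and 0.358 in the parent cultures, 0.576 in F10 and 0.506 in F6. In total RNA, 0 of the 9 passed the unadjusted threshold. Of 9 genes of the X inactivation centre, Chic1 alone has a deposited ratio, and it was called higher, from 0.186 and 0.165 to 0.569 in F10 and 0.497 in F6. Of the 7 tested for total RNA, 0 passed the unadjusted threshold.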

How the data were processed

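Chromatin-associated RNA libraries of mouse ES-derived cultures were compared, 2 per group, with groups taken from the labels. Per the labels, Bowtie2 2.3.2 served the authors to discard ribosomal sequence, and the rest was aligned with STAR 2.4.2a to the mm10 genome with strain differences masked, split by allele, and counted per gene and strand with featureCounts. The deposited counts give all, Cast and Dom fragments per gene with no normalization. The authors also deposited the allelic ratio, a fraction, of 246 X genes that passed their filters. Recomputed from the counts it differed by at most 5.6e-16.

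Dom and Cast counts were tested with edgeR 4.0.16 (R 4.3.3) in a quasi-likelihood model of the 16 NPC day 6 libraries, with a term per library and an allele term per group. Genes needed 10 allelic fragments in each of the 4 libraries and a pooled Dom share of 0.1 to 0.9 in the 13 uninduced ES libraries. Total counts were tested in the same libraries after filterByExpr and TMM normalization. Alternatives used limma 3.58.1, DESeq2 1.42.0, other filters, scalings and samples. The models were tested on simulated data. P-values were adjusted by Benjamini-Hochberg at 0.05. The model pooled the spread of a gene over the 8 groups. Some groups hold cultures of 1 line, whose spread may be technical, and others hold different clones. The pooled spread behind the p-values may therefore understate the spread between the clones compared here.

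The groups, genes and 17 lists were chosen with earlier results of these data known: naive pluripotency, core and formative pluripotency, neural precursor, mesoderm, endoderm, trophoblast, fibroblast, ERK output, X-linked MAPK and pluripotency, Notch and RBPJ, SPEN corepressor, PRC1, PRC2, Hox, escape, X inactivation centre and p53 target genes. Named genes were Xist, Tsix, Spen, Pcgf3 and Pcgf5, list members, the 8 largest rises of the ratio among called genes with 50 allelic fragments in each library whose groups did not overlap, and the 6 smallest among genes with 200. The rule also took up to 4 called falls, called changes in total expression and called differences between treatments, and none was called. Genes outside it are marked in the text or stand in counts named in full. Replicate numbers and clones pair the treated and untreated cultures: a clone is 1 cell line, and the study describes the parent cultures as parallel. Deviations from the group means of log2 CPM correlated by 0.835 in the SPOC line and by 0.449 in the parent line. Deviations of log2 odds of Dom over Cast, the scale on which the block was used, correlated less, by 0.265 and 0.0707 over all 11699 genes and by 0.364 and -0.0913 over the 229 with a deposited ratio. The values of 1 listed gene are not reported here.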

Additional observations from a re-analysis of the deposited data

How the results depend on the processing

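The higher allelic ratio of the SPOC clones kept its direction in every alternative tried, with a difference of medians of 0.298 to 0.307 under other gene filters and summaries and 0.577 relative to day 0, and of 0.273 to 0.352 when a library was left out. The count of X genes with a deposited ratio called higher was 75 with limma on log2 odds and 87 to 149 when a library was left out, and the count over all genes was 76 with limma on log2 odds and 91 to 163 when a library was left out. Among the runs that left out a library, the lowest counts came without the first parent culture. Genes called lower, 6 in all, numbered 10 with the 4 libraries alone, 12 with the 8 degron libraries, 10 with all 58, 2 with limma on ratios, 1 with limma on log2 odds, 0 when adjusted over X genes alone and 1 to 19 when a library was left out, 19 being the count without F6. Leaving out the shallow DelPID NPC day 6 replicate 1, an alternative chosen after seeing the data, gave 3.

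No paired analysis was possible for the comparison of the lines because the clones and the parent cultures share a number only. For the difference between treatments, the replicate block gave 15 higher and 33 lower, all 58 libraries gave 9 lower, and leaving out a library gave 0 to 7 lower, 7 without either F10 library. The median of that difference was 0.016 with limma on ratios, and the difference of medians ran from -0.0176 to 0.0610, the negative values without an F10 library. Total expression calls were 17 higher and 22 lower with DESeq2 and 5 higher and 3 lower with all 58 libraries. The median total log2 change of X genes ran from -0.154 to 0.526 for those with a deposited ratio and from -0.148 to 0.513 for all X genes when a library was left out, the lowest without F6. The cause of these changes was not tested. Of 14 genes named for their Dom share, 2 (Slc7a3 and Atp6ap2) lost their call in some alternative and 5 (Kdm6a, Rbm3, Rpgr, Uba1 and Araf) gained one. Lef1 and Egr1 gained one in total expression with DESeq2. Genes not called held fewer allelic fragments than called genes, a median of 45 against 205 in their lowest library, but Kdm6a, with at least 2991 in each, was not called either. Each group held 2 libraries.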
